A study of Mus musculus with 7 samples.

Results

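Small nuclear and nucleolar RNA genes were followed through an EZH2 antibody pull-down (RIP-seq, sequencing of RNA co-purified with an antibody) in mouse embryonic stem cells. Of 303889 rows of the deposited count table, each a stretch of 1 strand of the genome, 226 overlapped on the same strand a gene that GENCODE M21 types as snoRNA (143 rows), scaRNA (15 rows) or snRNA (68 rows). These rows touched 293 of 2941 annotated genes of the 3 types, namely 206 of 1507 snoRNA genes, 19 of 51 scaRNA genes and 68 of 1383 snRNA genes. The choice used position and annotation only, no measured level.

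The knockout groups were EZH2 KO (2 libraries, clones 12 and 19) and SAFB DKO (2 libraries, clones 13 and 4, lacking both SAFB and SAFB2), and both were set against WT (3 libraries, the parental line and clones 20 and 44). All 7 libraries came from male CAST/B6 cells with a Rosa26-RMCE locus, and all cultures received 3 days of doxycycline, whose target the labels leave unnamed. By its title the study asks whether an antibody raised against EZH2 also recognises SAFB, an RNA-binding protein of the nuclear matrix, so that RNA recovered without EZH2 or without SAFB is the comparison of interest. The 7 libraries are separate clones or lines, and each clone is 1 biological sample.

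Box C/D and H/ACA snoRNAs guide the methylation and pseudouridylation of ribosomal RNA, and a few, such as U3, take part in cutting the ribosomal precursor. In mammals most of them are made from introns of longer host genes, many of which encode ribosomal or nucleolar proteins. The scaRNAs guide the same modifications on spliceosomal snRNAs in Cajal bodies, and the snRNAs themselves are transcribed from their own promoters and form the core of the spliceosome. Mammalian genomes also hold many degenerate copies of snRNA genes, which lie wherever they were inserted.

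The EZH2 KO libraries held 7050832 and 8353603 counts, the SAFB DKO libraries 18738499 and 15812517, and the 3 WT libraries between 19024702 and 21832539. Summed over its rows, Ezh2 stood at 1.21 ± 1.48 counts scaled to library size (CPM) in EZH2 KO and 180 ± 19.2 CPM in WT (SD, n = 2 and 3). Safb stood at 1.00 ± 0.581 CPM in SAFB DKO and 200 ± 71.9 CPM in WT, and Safb2 at 1.86 ± 1.49 CPM in SAFB DKO and 239 ± 99.2 CPM in WT. Safb2 rose in EZH2 KO, to 682 ± 94.1 CPM. Of 14 embryonic stem cell markers, 13 had a row, and their summed level was 4530 to 5054 CPM in EZH2 KO, 3636 to 3807 CPM in SAFB DKO and 3875 to 3963 CPM in WT. Tet1 carried much of that sum, at 3380 CPM in EZH2 KO, 1428 CPM in SAFB DKO and 2227 CPM in WT. By group means, 9 of the 13 were lower than WT in EZH2 KO and higher in SAFB DKO, as was Pou5f1 at 94.2 CPM in EZH2 KO, 327 CPM in SAFB DKO and 198 CPM in WT. The opposite held for 3, and 1 was higher in both. Their part in the results was not tested. The summed level of the neural markers with a row (2 of 5) was lower in both knockouts, at 103 to 120 CPM in EZH2 KO, 70.0 to 71.3 CPM in SAFB DKO and 173 to 249 CPM in WT, and the part of such cells in the results was not tested. The 2 EZH2 KO libraries correlated less well with each other (r = 0.827 across rows, which are not independent) than the 2 SAFB DKO libraries did (r = 0.929), and their column names follow another pattern and repeat a library number of a WT column. Whether they were sequenced apart from the rest is not given in the labels, and if so, genotype and run cannot be told apart. No input library is used here, so that RNA pulled down and RNA present, and likewise fewer cells and less RNA per cell, cannot be told apart.

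What the rows measure differs between the members. The median row spanned 793 bases against 247 in the whole table, and the small RNA gene filled a median of 12.1% of it (11% for snoRNA rows, 35.7% for scaRNA rows and 13.9% for snRNA rows). Only 23 rows were mainly small RNA, meaning that at least 50% of their length lay in the small RNA gene, and 16 of these were tested. The rows nearest to that limit were those of Gm25556 at 52.4% and Gm25360 at 45.2%. A further 102 rows overlapped an exon of a host gene, 67 lay in a host intron and 34 had no host. Most rows are thus, by length, mainly sequence of the host or of the surroundings, and the table does not show where in a row the reads lie. In all, 36 rows held more than 1 small RNA gene. Low counts kept 13 rows out of the tests, so that 213 were tested (141 snoRNA, 14 scaRNA, 58 snRNA). All rows of the table are intervals that the file header names after the pooled WT precipitates, so that RNA not recovered from WT may have no row. Of the members, 13 were in the authors' deposited filtered list of intervals, 6 of them also in the shorter one, and the criterion of these lists is not given in the sources used here.

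As a share of all counts, the 226 rows together stood below WT in EZH2 KO and above it in SAFB DKO. They took 0.735% and 0.723% of the counts in EZH2 KO, 1.84% and 1.75% in SAFB DKO, and 1.21%, 1.23% and 1.20% in WT. The 3 groups did not overlap. The ratio of mean shares was 0.600 for EZH2 KO against WT and 1.48 for SAFB DKO against WT, each with p = 0.1 in an exact two-sided permutation test, which is the smallest p that 3 against 2 libraries allow. For SAFB DKO against EZH2 KO the ratio was 2.46, with p = 0.3333 in the exact permutation test, the smallest that 2 against 2 libraries allow. Most of these counts lay in rows at host exons, with mean shares of 0.586% in EZH2 KO, 1.66% in SAFB DKO and 1.08% in WT. Their ratios to WT were 0.541 and 1.53 (p = 0.1 each, exact permutation). The medians over all exon rows of the table had the same signs, with log2 changes of -0.54 and 0.26. The called exon rows went both ways, with 13.1% falling and 5.05% rising in EZH2 KO. In SAFB DKO more of them fell (6.86%) than rose (4.53%). The rows that were mainly small RNA stood further from WT, at 0.0104% ± 0.000747 in EZH2 KO, 0.0679% ± 0.00194 in SAFB DKO and 0.0310% ± 0.00158 in WT (SD, n = 2, 2 and 3). The ratios were 0.336 and 2.19 against WT (p = 0.1 each, exact permutation). Rows in host introns went the other way, at 1.35 times the WT share in EZH2 KO and 0.614 times in SAFB DKO (p = 0.1 each, exact permutation), as did rows with no host, at 1.27 and 0.788 times (p = 0.1 each, exact permutation). The snRNA rows as a whole stood at 0.982 times the WT share in EZH2 KO (p = 0.7, exact permutation) and at 1.18 times in SAFB DKO (p = 0.1, exact permutation). Counting error is small beside these differences, with exact 95% intervals of 0.728% to 0.741% in the first EZH2 KO library and 1.84% to 1.85% in the first SAFB DKO library. Such intervals cover counting error only.

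The row that covered the 3′ part of Rnu3a, which encodes the U3 snoRNA of ribosomal precursor cleavage, had the highest mean level in SAFB DKO and in WT of all rows that were mainly small RNA, while in EZH2 KO Scarna2 stood higher. It lies on the plus strand at chr10:40258501-40258679 (mm10), lies wholly within the gene, which is annotated there under 2 overlapping entries, and has no host. It stood at 18.6 and 33.5 CPM in EZH2 KO, 268 and 299 CPM in SAFB DKO, and 134, 129 and 109 CPM in WT. The 3 groups did not overlap, with the EZH2 KO libraries lowest and the SAFB DKO libraries highest. In edgeR's quasi-likelihood test with Benjamini-Hochberg adjustment over all tested rows, it fell by 2.25 on the log2 scale in EZH2 KO (SE 0.22, adjusted p = 1.68e-05), whereas it rose by 1.19 in SAFB DKO (SE 0.19, adjusted p = 0.00018). Both calls held with any 1 of the 7 libraries left out. U3 has further gene copies, among them Rnu3b4, and reads of near-identical copies may have been split between them, so that the value is of this row and not of U3 as a whole. The sequences of Rnu3a and of 3 scaRNAs of the same class are shown because their rows are mainly small RNA. Capitals mark the TGATGA of the box C motif (in Rnu3a in its 3′ part) and a CTGA of box D towards the 3′ end, or the ACA that ends 3 bases from the 3′ end of H/ACA RNAs. The sequences are the GENCODE M21 transcripts (mm10).
Rnu3a, chr10:40258467-40258679: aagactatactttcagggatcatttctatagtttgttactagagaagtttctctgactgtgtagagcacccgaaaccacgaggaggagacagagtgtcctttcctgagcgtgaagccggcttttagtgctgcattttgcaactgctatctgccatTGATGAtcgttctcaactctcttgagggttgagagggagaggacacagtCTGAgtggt
Scarna13, chr12:105031075-105031349: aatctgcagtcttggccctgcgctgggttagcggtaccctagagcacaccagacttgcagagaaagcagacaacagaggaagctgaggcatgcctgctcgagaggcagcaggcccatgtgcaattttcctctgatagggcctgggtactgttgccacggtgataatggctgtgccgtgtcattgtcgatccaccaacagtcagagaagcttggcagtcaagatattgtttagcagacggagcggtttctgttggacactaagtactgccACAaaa
Scarna6, chr1:87784556-87784820: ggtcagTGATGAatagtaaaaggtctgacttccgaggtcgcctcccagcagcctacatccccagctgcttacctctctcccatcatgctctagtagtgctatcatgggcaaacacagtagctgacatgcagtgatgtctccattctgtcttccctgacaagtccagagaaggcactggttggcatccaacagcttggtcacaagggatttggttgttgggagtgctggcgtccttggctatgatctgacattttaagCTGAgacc
Gm25395, chr1:87776938-87777209: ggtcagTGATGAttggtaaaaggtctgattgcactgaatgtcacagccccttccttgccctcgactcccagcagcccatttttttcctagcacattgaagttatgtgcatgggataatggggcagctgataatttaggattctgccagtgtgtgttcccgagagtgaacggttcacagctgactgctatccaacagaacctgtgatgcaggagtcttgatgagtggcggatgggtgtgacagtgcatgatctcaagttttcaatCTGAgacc

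**Figure D1:**
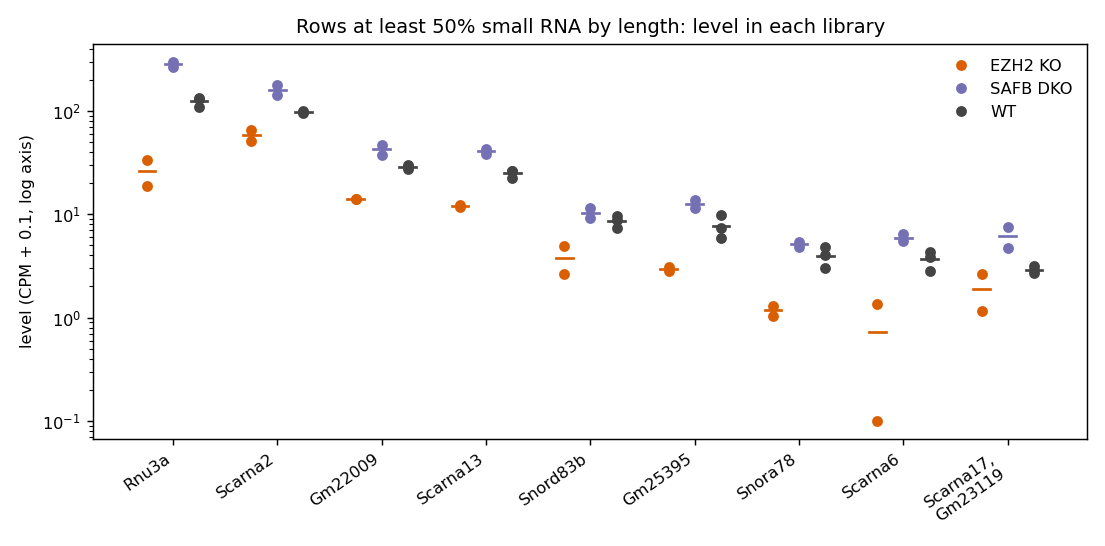
Level of the rows that are mainly small RNA and are best covered, in CPM on a log axis, with 1 point per library after adding 0.1 CPM and a bar at each group's mean (EZH2 KO, SAFB DKO, WT). Rnu3a lies at 18.6 and 33.5 CPM in EZH2 KO, 268 and 299 CPM in SAFB DKO and 109 to 134 CPM in WT, and Scarna2 shows the same order.

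The scaRNAs, guides of snRNA modification, stood in the same order in the tested rows that were mainly small RNA, lowest in EZH2 KO and highest in SAFB DKO. Scarna2, which has no host (chr3:108554341-108554729, minus strand), stood at 51.7 and 65.6 CPM in EZH2 KO, 179 and 144 CPM in SAFB DKO, and 99.0, 96.3 and 98.1 CPM in WT. Its groups did not overlap, and it fell by 0.74 on the log2 scale in EZH2 KO (adjusted p = 0.00721, edgeR), whereas it rose by 0.72 in SAFB DKO (adjusted p = 0.00329). The second call was lost without SAFB DKO replicate 1 (adjusted p = 0.0806). Scarna13, an H/ACA-type scaRNA in an intron of Snhg10, stood at 11.6 and 12.1 CPM in EZH2 KO, 42.6 and 38.4 CPM in SAFB DKO, and 26.4, 25.9 and 22.3 CPM in WT. It fell in EZH2 KO (log2 change -1.07, SE 0.21, adjusted p = 0.00267), whereas in SAFB DKO it rose (0.70, SE 0.19, adjusted p = 0.0122). Gm22009, in an intron of Kpna4, stood at 13.8 and 14 CPM in EZH2 KO, 47.2 and 37.8 CPM in SAFB DKO, and 29.4, 27.6 and 29.6 CPM in WT. It fell by 1.05 in EZH2 KO (adjusted p = 0.00263), whereas it rose by 0.56 in SAFB DKO (adjusted p = 0.0419). Scarna17, in 1 row with Gm23119, stood at 1.05 and 2.52 CPM in EZH2 KO, 7.44 and 4.63 CPM in SAFB DKO and 2.57, 2.78 and 3.03 CPM in WT. It rose in SAFB DKO by 1.11 (adjusted p = 0.0409) and was not called in EZH2 KO. The SAFB DKO calls of Scarna13, Gm22009 and Scarna17 were each lost when any 1 WT library or SAFB DKO replicate 1 was left out, with adjusted p of up to 0.0997, 0.325 and 0.390.

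A pair of scaRNAs of lower level lie in introns of Atg16l1, an autophagy gene. Scarna6 stood at 0 and 1.26 CPM in EZH2 KO, 5.43 and 6.30 CPM in SAFB DKO, and 4.23, 3.72 and 2.71 CPM in WT. It fell in EZH2 KO (log2 change -2.51, SE 0.67, adjusted p = 0.0188). Gm25395 stood at 2.71 and 2.99 CPM in EZH2 KO, 11.4 and 13.7 CPM in SAFB DKO, and 9.74, 5.74 and 7.20 CPM in WT. It fell in EZH2 KO (-1.41, SE 0.34, adjusted p = 0.0114). The groups of both did not overlap, while their values in SAFB DKO, 0.72 and 0.73 above WT, were not called. The fall of Scarna6 was lost without any 1 of the WT libraries or EZH2 KO replicate 1 (adjusted p of up to 0.0843) and that of Gm25395 without WT replicate 1 (0.0707). Between the 2 knockouts, both rose in SAFB DKO over EZH2 KO, by 3.23 (adjusted p = 0.00132) and 2.14 (adjusted p = 0.000176).

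The other scaRNA rows, Scarna3b apart, were by length mostly sequence outside the scaRNA. Gm23751, 5.68% of a row at an exon of Chd4, stood at 98.8 and 142 CPM in EZH2 KO, 187 and 162 CPM in SAFB DKO and 174, 167 and 186 CPM in WT. It fell in EZH2 KO by 0.55 (adjusted p = 0.0349). The call was lost without any 1 WT library or EZH2 KO replicate 1 (adjusted p of up to 0.193). Gm22442, at an exon of Chd3, changed by -0.63 in EZH2 KO and -0.12 in SAFB DKO and was not called. Gm26083, at an exon of Snhg20, was 0.48 lower in EZH2 KO, not called, whereas it rose by 0.75 in SAFB DKO (adjusted p = 0.0452; up to 0.612 without 1 library, and lost without any WT library or SAFB DKO replicate 1). Also 2 intronic scaRNA rows rose in EZH2 KO, namely Gm23370 in Mgat5 by 1.33 (adjusted p = 0.0237) and Gm26413 in Fbf1 by 1.73 (adjusted p = 0.00984), as did Gm24682, which has no host, by 2.29 (adjusted p = 0.038). Each of these 3 calls was lost without WT replicate 2 or WT replicate 3. Those of Gm23370 and Gm24682 were also lost without WT replicate 1, the first without EZH2 KO replicate 1 and the second without EZH2 KO replicate 2, with adjusted p of up to 0.105, 0.0701 and 0.171 for the 3 rows as listed. Gm23370 fell in SAFB DKO (-1.55, adjusted p = 0.0134). This call was lost without WT replicate 1, WT replicate 2 or either SAFB DKO library (up to 0.0671). Gm22813 and Gm27653, at under 2 CPM in every library, were not called in either comparison with WT, and Scarna3b, at 0 CPM in both EZH2 KO libraries and at most 0.411 CPM elsewhere, was not tested.

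Of the snoRNAs in this class besides Rnu3a, Snora78, in an intron of Snhg9, stood at 1.20 and 0.944 CPM in EZH2 KO, 4.74 and 5.27 CPM in SAFB DKO, and 3.95, 2.92 and 4.70 CPM in WT. It fell in EZH2 KO by 1.83 (adjusted p = 0.0145; up to 0.0718, lost without WT replicate 1 or WT replicate 3). Snord83b, in an intron of Rpl3, stood at 2.56 and 4.88 CPM in EZH2 KO, 11.3 and 9.15 CPM in SAFB DKO, and 9.61, 7.25 and 8.72 CPM in WT. It fell in EZH2 KO by 1.20 (adjusted p = 0.0235; up to 0.121, lost without any 1 WT library or EZH2 KO replicate 1). In both, the EZH2 KO libraries lay below all others. Over all 16 tested rows that were mainly small RNA, 8 fell and none rose in EZH2 KO against WT, with a median log2 change of -1.35. Of all 192964 tested rows, 15.6% were called in that comparison, 8.07% falling and 7.5% rising, with a median of -0.21. In SAFB DKO against WT none fell and 5 rose, with a median of 0.72, where 19.7% of all rows were called, 17.4% falling and 2.26% rising, with a median of -0.17. For SAFB DKO against EZH2 KO none fell and 11 rose, with a median of 2.16, where 39.9% of all rows were called, 23.3% falling and 16.6% rising. At an unadjusted p under 0.05 there were 9 falls in EZH2 KO and, in SAFB DKO, 6 rises, still with none in the opposite direction, and DESeq2 gave 8 and 6. Leaving out 1 library at a time moved the counts to between 4 and 10 that fell in EZH2 KO, and to between 1 and 6 that rose in SAFB DKO.

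**Figure D2:**
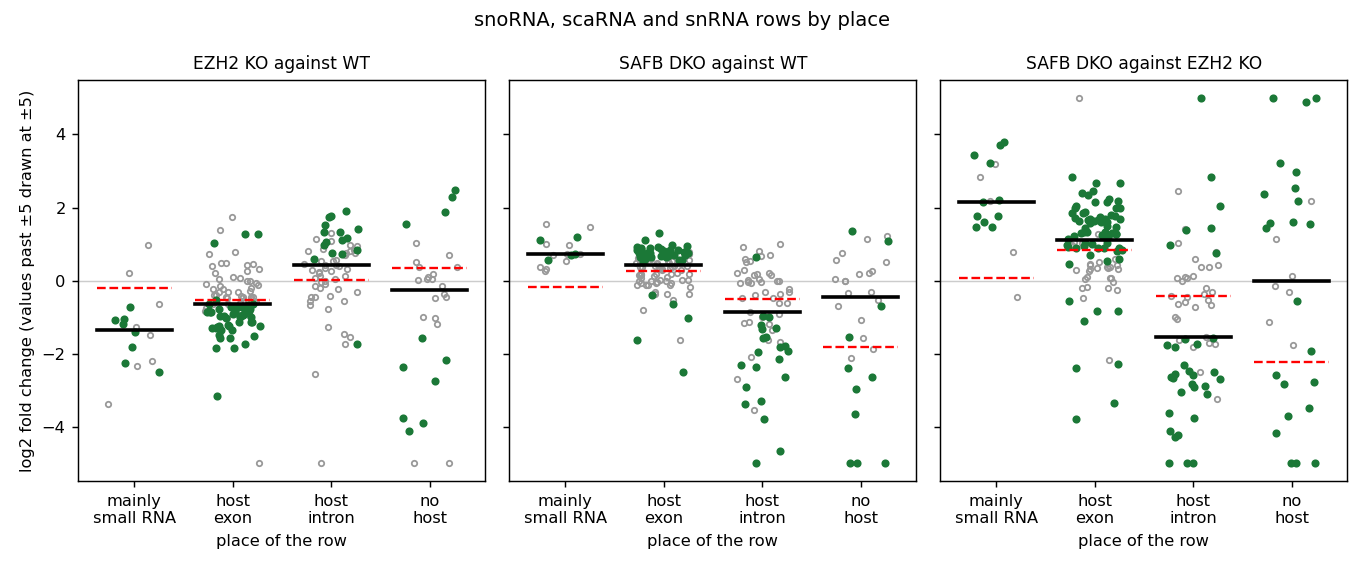
Log2 fold change of every tested snoRNA, scaRNA and snRNA row by where it lies, for each comparison, with filled points for called rows, a black bar at the median of each class and a dashed bar at the median of all tested rows of the table in the same place (for rows that are mainly small RNA, of all tested rows). Values past 5 in either direction are drawn at 5. In EZH2 KO against WT the median is -1.35 for rows that are mainly small RNA, -0.65 for host exons and 0.42 for host introns, and in SAFB DKO against WT it is 0.72, 0.42 and -0.86.

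Over all 213 tested members, 62 fell and 22 rose in EZH2 KO against WT (median log2 change -0.45). In SAFB DKO against WT 35 fell and 44 rose (median 0.17), and in SAFB DKO against EZH2 KO 45 fell and 95 rose (median 0.70). The split depended on scaling. Scaled by column totals alone, which shifts the median of all rows to -0.46 in EZH2 KO and to 0.05 in SAFB DKO, 87 fell and 14 rose in EZH2 KO, and 32 fell and 62 rose in SAFB DKO. In SAFB DKO, DESeq2 size factors gave 32 fell and 61 rose, and without WT replicate 1, 2 or 3 or without SAFB DKO replicate 1 more rows fell than rose (30 and 23, 29 and 19, 32 and 25, and 30 and 17). The members did not move as 1 group, and the classes below differ in direction.

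By gene type, the snoRNA rows held most of the falls in EZH2 KO, with 50 of 141 falling (35.5%) and 10 rising (median -0.56), where 8.07% of all tested rows fell and 7.5% rose. In SAFB DKO 17 fell and 37 rose (26.2%; median 0.33), where 17.4% of all rows fell and 2.26% rose. Without 1 library the snoRNA falls in EZH2 KO lay between 34 and 66. The rises in SAFB DKO lay between 16 and 23, with 13 to 15 falls, when any WT or SAFB DKO library was left out, the lowest being without SAFB DKO replicate 1. Of 14 scaRNA rows, 6 fell and 3 rose in EZH2 KO and 1 fell and 5 rose in SAFB DKO. Those falls numbered 3 without WT replicate 1, and those rises 0 without SAFB DKO replicate 1 and 1 without any 1 WT library. Of 58 snRNA rows, 6 fell (10.3%) and 9 rose (15.5%) in EZH2 KO (median 0.22), shares nearer to those of all rows. Without any 1 WT library these were 1 or 2 falls and 5 rises, and without EZH2 KO replicate 2 they were 9 and 10. In SAFB DKO 17 snRNA rows fell and 2 rose (29.3% fell, median -0.44, 16 to 21 falls without 1 library), although their summed share of counts was above WT. Much of that summed share lay in the row of Gm23497, which rose. Whether the types differ from each other was not tested.

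Rows at host exons carried most of the calls. Of 102 such rows, 46 fell and 3 rose in EZH2 KO (45.1% fell; median -0.65), beside 13.1% falling and 5.05% rising of all rows at exons in the table (median -0.54). In SAFB DKO 5 fell and 36 rose (35.3% rose; median 0.42), beside 6.86% falling and 4.53% rising of all rows at exons (median 0.26). The medians of the member rows thus lay close to those of all exon rows, while the shares called were larger. The member rows were also longer than the typical row of the table, and the part of length and depth in their larger share of calls was not tested. Between the knockouts, in SAFB DKO against EZH2 KO, 8 fell and 65 rose (median 1.10), beside 10.5% falling and 28.5% rising of all exon rows (median 0.84). Leaving out 1 library moved the falls in EZH2 KO to between 32 and 56 and the rises in SAFB DKO to between 16 and 44, the rises being at most 22 without any 1 WT or SAFB DKO library.

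Among these, the rows of highest level came from Ncl, Eef2 and Rpl4, genes of the nucleolus and of translation. Snord82, in a row of Ncl (nucleolin) with 1480 CPM per kb in WT, stood at 1181 and 1499 CPM in EZH2 KO, 1738 and 1505 CPM in SAFB DKO, and 2073, 2217 and 2116 CPM in WT. It was below WT in both knockouts, with a fall of 0.67 in EZH2 KO (adjusted p = 0.000883) and of 0.40 in SAFB DKO (adjusted p = 0.0175, lost without WT replicate 1, WT replicate 2 or SAFB DKO replicate 2, up to 0.163). Snord37, in a row of Eef2, which encodes a translation elongation factor, stood at 928 and 1012 CPM in EZH2 KO, 3547 and 3376 CPM in SAFB DKO, and 1816, 1835 and 1641 CPM in WT. Its groups did not overlap, with a fall of 0.86 in EZH2 KO (adjusted p = 4.18e-05) and a rise of 0.97 in SAFB DKO (adjusted p = 7.72e-07). Gm22455, in a row of Rpl4, stood at 899 and 997 CPM in EZH2 KO, 953 and 880 CPM in SAFB DKO, and 977, 1045 and 861 CPM in WT, with overlapping groups and no call (log2 changes of -0.02 and -0.07). Snord96a, in a row of Rack1, stood at 75.8 and 87.3 CPM in EZH2 KO, 426 and 347 CPM in SAFB DKO, and 179, 177 and 184 CPM in WT, which is a fall of 1.14 (adjusted p = 0.000116) and a rise of 1.10 (adjusted p = 1.54e-05). The row of Snord35a, Snord34, Snord33 and Snord32a gave 221 and 240 CPM in EZH2 KO, 836 and 695 CPM in SAFB DKO, and 487, 449 and 421 CPM in WT, a fall of 0.97 and a rise of 0.76 (adjusted p = 0.000148 and 0.000234).

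The 33 rows hosted by ribosomal protein genes gave 12 falls and no rise in EZH2 KO (median -0.58), and no fall and 14 rises in SAFB DKO (median 0.53), or 36.4% falling and 42.4% rising, beside the shares of all exon rows above. Without 1 library there were 7 to 13 falls in EZH2 KO, the fewest without WT replicate 2. The rises in SAFB DKO then numbered 4 without WT replicate 2, 5 without WT replicate 3 or SAFB DKO replicate 1, and 7 without WT replicate 1 or SAFB DKO replicate 2. At an unadjusted p under 0.05 this was 16 falls and 2 rises in EZH2 KO, and no fall and 18 rises in SAFB DKO, and DESeq2 gave 12 falls and 19 rises. Rian, an imprinted noncoding RNA that hosts a cluster of C/D snoRNAs, had 5 rows, of which 3 fell in EZH2 KO (median -0.94) and none was called in SAFB DKO, with none under an unadjusted p of 0.05 and none by DESeq2. Of all tested rows 8.07% fell in EZH2 KO. The 5 rows lie in 1 host, so that their calls are not independent. All 3 falls were alike with the nearest other rows of Rian, and no row differed from these. Gm24895, for example, stood at 1.20 and 4.40 CPM in EZH2 KO, 11 and 17.3 CPM in SAFB DKO, and 8.41, 9.60 and 12.2 CPM in WT (log2 change -1.85 in EZH2 KO, adjusted p = 0.00715; 0.0502 without WT replicate 3). Its EZH2 KO libraries lay below all others.

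Rows in host introns moved against the exon rows. Of 65, 1 fell and 15 rose in EZH2 KO (median 0.42), beside 4.42% falling and 8.87% rising of all intron rows (median 0.01), and 21 fell and 1 rose in SAFB DKO (median -0.86), beside 20% falling and 0.239% rising, together 20.2%, of all intron rows (median -0.50). Without 1 library the rises in EZH2 KO lay between 7 and 16, being 7 or 8 without any 1 WT library. There were then at most 7 falls, without EZH2 KO replicate 2, beside 13 rises. The falls in SAFB DKO lay between 16 and 24. Set against EZH2 KO, in SAFB DKO 26 fell and 7 rose (median -1.56), beside 26.7% falling and 7.98% rising of all intron rows. Of the 13 members in the deposited filtered list, 3 rose and none fell in EZH2 KO, and 8 fell and none rose in SAFB DKO (5 and 11 at an unadjusted p under 0.05, 3 and 8 by DESeq2, none in the opposite direction). Of all tested rows 7.5% rose in EZH2 KO and 17.4% fell in SAFB DKO, and the shares of the whole filtered list were not computed. These counts are no independent evidence, because all intervals were drawn from the WT libraries and the criterion of the list is not known. Gm25235, annotated as an snRNA in an intron of Atf6, stood at 34.1 and 48.9 CPM in EZH2 KO, 5.61 and 3.98 CPM in SAFB DKO, and 21.1, 22.7 and 20.1 CPM in WT. It rose by 0.96 in EZH2 KO (adjusted p = 0.00741; 0.0503 without WT replicate 1) and fell by 2.14 in SAFB DKO (adjusted p = 5.94e-06). Gm24667, an snRNA copy in an intron of Atf7ip2 (row at chr16:10237907-10238932), stood at 43.4 and 76.3 CPM in EZH2 KO, 1.41 and 1.83 CPM in SAFB DKO, and 16.4, 16 and 16 CPM in WT. Its groups did not overlap, and it rose by 1.89 in EZH2 KO (SE 0.23, adjusted p = 7.75e-05) and fell by 3.31 in SAFB DKO (SE 0.29, adjusted p = 2.96e-07). The gene fills 10.04% of that row, and its sequence is given, with no motif marked, because it shows what such a copy is: 68 bases of it align to Rnu6, the U6 snRNA of the spliceosome, at 76.5% identity.
Gm24667, chr16:10237918-10238020: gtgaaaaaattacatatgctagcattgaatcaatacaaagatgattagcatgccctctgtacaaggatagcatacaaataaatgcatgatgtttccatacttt

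The 30 tested rows with no host gave 7 falls and 4 rises in EZH2 KO (median -0.26), beside 3.77% falling and 10.5% rising of all rows without a host, and 9 falls and 2 rises in SAFB DKO (median -0.44), beside 37.1% falling and 1.09% rising. Without any 1 WT library there were 1 or 2 falls in EZH2 KO. Gm25487, annotated as a snoRNA but filling 3.97% of a row of 3148 bases (chr3:41439114-41442261), spanned the widest range, with 279 and 362 CPM in EZH2 KO, 1.64 and 2.37 CPM in SAFB DKO, and 108, 116 and 39.7 CPM in WT. It rose by 1.86 in EZH2 KO (SE 0.30, adjusted p = 0.000649) and fell by 5.46 in SAFB DKO (SE 0.42, adjusted p = 7.39e-08). WT replicate 3 stood apart, and without it the changes were 1.51 and -5.82, still called. Gm25275 and Gm25596, and also Gm22784, which lies in an intron of Nbea, were at 0 counts in both SAFB DKO libraries. With a floor of 3 counts over that group Gm22784 was at least 9.34-fold, Gm25275 at least 6.04-fold and Gm25596 at least 9.62-fold lower than WT. Their calls in SAFB DKO had adjusted p = 0.00964, 0.0102 and 0.00334. The first 2 were lost without either SAFB DKO library, and the first also without WT replicate 2 (up to 0.0706 and 0.073). Snord118, the U8 snoRNA of large-subunit rRNA maturation, filled 15.2% of a row with 0 CPM in both EZH2 KO libraries, 1.64 and 0.646 CPM in SAFB DKO, and 0.781, 0.188 and 0.574 CPM in WT, and was not called against WT in either knockout.

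Sorted by sequence, rows with a match to both box C and box D made up 30 of the 50 snoRNA rows that fell in EZH2 KO. The classes rest on exact matches, and the rows with neither motif were not sorted further. Box C (TGATGA, plus strand of the gene, within 20 bases of its 5′ end) together with box D (CTGA, within 20 bases of its 3′ end) was found in 36.4% of the 206 snoRNA genes with a row and in 20.5% of the 1507 annotated snoRNA genes. An ACA 3 bases from the 3′ end was found in 28.2% and 18.3%. Of 50 tested rows with box C and box D, 30 fell and none rose in EZH2 KO (median -0.85), and 2 fell and 17 rose in SAFB DKO (median 0.46), beside falls of 8.07% of all tested rows in EZH2 KO and rises of 2.26% in SAFB DKO. Of 46 rows with the ACA, 12 fell and 3 rose in EZH2 KO (median -0.27), and 7 fell and 7 rose in SAFB DKO (median 0.16). Of 45 with neither, 8 fell and 7 rose in EZH2 KO, and 8 fell and 13 rose in SAFB DKO. Leaving out 1 library gave between 22 and 32 falls of C/D rows and between 7 and 17 falls of ACA rows in EZH2 KO. In SAFB DKO it gave between 8 and 23 rises of C/D rows, the fewest without SAFB DKO replicate 1, and between 0 and 9 rises of ACA rows, with none left without WT replicate 2. The classes share hosts and rows, and their difference was not tested.

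Among the snRNA rows the annotated copies of U6 were the largest family. The closest of the named mouse snRNAs by alignment was Rnu6 for 34 of the 68 genes (identity 74.5% to 100%), Rnu1a1 for 17, Rnu2-10 for 9, Rnu11 for 2 and Rnu12 for 1, and 5 had no match. Of 29 tested rows nearest to Rnu6, 6 rose and none fell in EZH2 KO (median 0.47), and 12 fell and none rose in SAFB DKO (median -1.01). In EZH2 KO 8.87% of all intron rows and 10.5% of all rows with no host rose, with 4.42% and 3.77% falling. In SAFB DKO 20% of all intron rows and 37.1% of all rows with no host fell, with few rising. In both comparisons the direction is thus also that of rows in such places. The 13 rows nearest to Rnu1a1 gave 2 falls and 1 rise in EZH2 KO, and 3 falls and 1 rise in SAFB DKO. The 8 nearest to Rnu2-10 gave 3 falls and 1 rise in EZH2 KO (median -1.52) and 1 fall in SAFB DKO. Of all tested rows 8.07% fell and 7.5% rose in EZH2 KO, and 17.4% fell and 2.26% rose in SAFB DKO. Rnu12, the U12 snRNA of the minor spliceosome, stood at 1.20 and 0.786 CPM in EZH2 KO, 7.94 and 2.31 CPM in SAFB DKO, and 2.30, 2.31 and 1.36 CPM in WT. Its rise in SAFB DKO (1.37, adjusted p = 0.0499) was lost without any 1 WT library or SAFB DKO replicate 1, with adjusted p of up to 0.884, and SAFB DKO replicate 2 lay at the top of the WT range. The snRNA row of highest level, that of Gm23497, was 2.99% snRNA by length and lay at an exon of Tfcp2l1, a pluripotency transcription factor gene. It stood at 87.6 and 119 CPM in EZH2 KO, 286 and 366 CPM in SAFB DKO, and 203, 187 and 222 CPM in WT, a fall of 0.98 in EZH2 KO (adjusted p = 0.000954) and a rise of 0.68 in SAFB DKO (adjusted p = 0.00522; 0.136 without SAFB DKO replicate 2). Gm22500, in an intron of Igsf11, stood at 12.8 and 10.9 CPM in EZH2 KO, 0.411 and 0.969 CPM in SAFB DKO, and 8.96, 11.2 and 8.04 CPM in WT. It fell in SAFB DKO by 3.79 (adjusted p = 1.56e-06). Gm25652, which has no host, stood at 5.41 and 5.98 CPM in EZH2 KO, 0.0912 and 0.807 CPM in SAFB DKO, and 4.96, 5.22 and 6.47 CPM in WT. It fell in SAFB DKO by 3.67 (adjusted p = 9.71e-05). In both, only the SAFB DKO libraries stood apart. Multicopy snRNAs may share reads, and how the authors' counting treated such reads is not given in the sources used here.

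To see whether a row moved with its host, it was set against the nearest rows of the host gene, up to 3 on each side and none of them on a small RNA gene, as the log2 change of the row relative to the summed counts of these flanks. This was possible for 146 rows. In EZH2 KO against WT, 42 rows moved alike with their flanks, 33 falling and 9 rising, and 22 differed, 7 lower and 15 higher than the flanks (5.9% of the 154368 rows of the table that could be tested so differed, 2.55% lower and 3.35% higher, and 40.4% of all flank sums were called, 21.7% falling and 18.6% rising). A paired fit of row and flank counts kept 14 of the 22, and 82 rows could be placed in neither class. In SAFB DKO against WT, 30 moved alike, 20 rising and 10 falling, and 19 differed, 13 lower and 6 higher (5.42% of all rows, 3.01% lower and 2.41% higher, with 35.2% of flank sums called, 25.8% falling and 9.46% rising), 16 of them in both fits. Between SAFB DKO and EZH2 KO, 46 moved alike and 48 differed, 32 lower and 16 higher (21% of all rows, 9.36% lower and 11.7% higher, with 59.8% of flank sums called, 30.7% falling and 29.1% rising), 39 of them in both fits. The shares of all rows that moved alike, or that differed in both fits, are not given here, so that these member counts lack that background. The numbers that differed changed widely with the library left out and the flanks used, as given in the closing section. By type, in EZH2 KO the snoRNA rows gave 33 alike and 14 differing of 99, the scaRNA rows 4 and 3 of 9, and the snRNA rows 5 and 5 of 38. On simulated counts with changes in known rows the first of these fits made false calls, so that a row is described as differing below only where both fits called it, unless the text gives the adjusted p of the fit that did not.

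**Figure D3:**
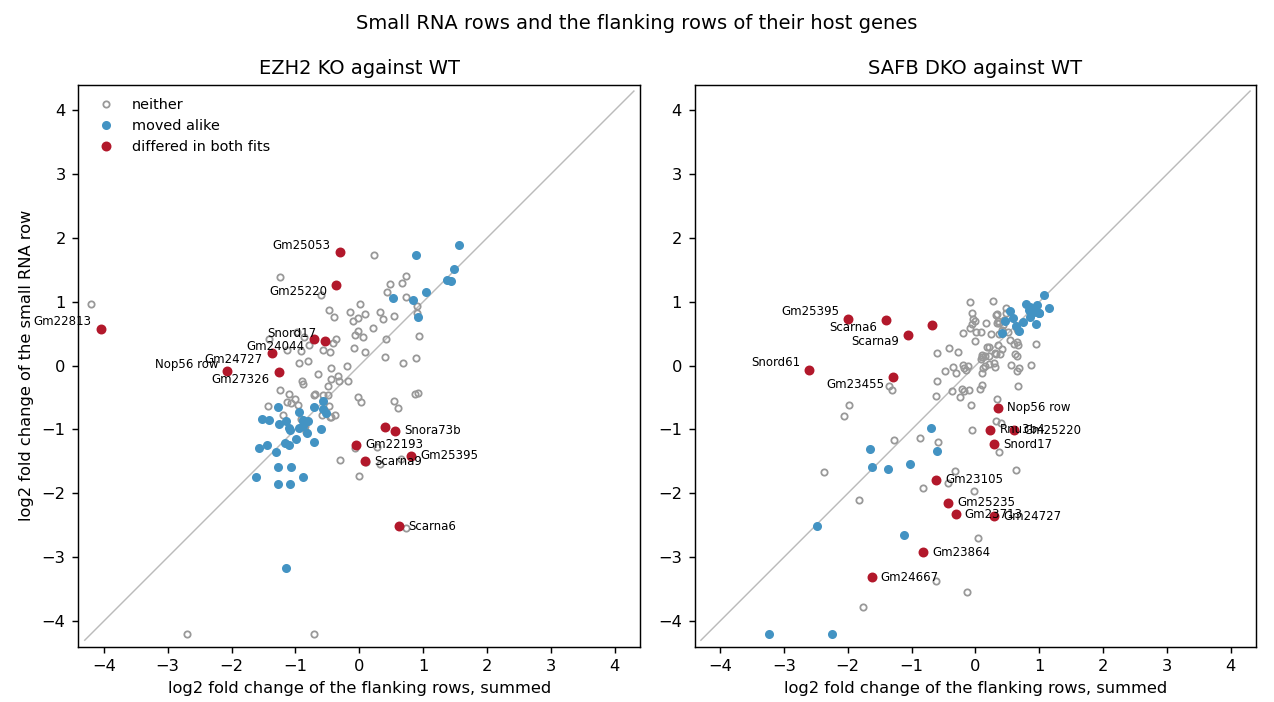
Log2 fold change of each row that holds a small RNA gene (vertical) against that of the summed flanking rows of its host gene (horizontal), for EZH2 KO against WT and SAFB DKO against WT, with red points for rows that differ from their flanks in both fits, blue points for rows that moved alike and open points for the others. Row changes past the axis are drawn at its edge. In EZH2 KO the row of Scarna9 lies at -1.50 with flanks at 0.09, and in SAFB DKO at 0.49 with flanks at -1.06.

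The row of Scarna9 and Gm24339, in Cep295, stood at 4.81 and 11.2 CPM in EZH2 KO, 37.8 and 25.1 CPM in SAFB DKO, and 21.6, 18.9 and 27.0 CPM in WT. Its flanks stood at 251 and 375 CPM in EZH2 KO, 131 and 151 CPM in SAFB DKO, and 265, 303 and 312 CPM in WT. Relative to the flanks it was 1.64 lower in EZH2 KO (adjusted p = 0.0167; 0.0179 in the paired fit) and 1.57 higher in SAFB DKO (adjusted p = 0.00725; 0.00419). With only the nearest flank on each side these were -1.39 and 0.82 and not called (adjusted p = 0.123 and 0.589). Leaving out any 1 WT library ended the first call (up to 0.0994), and leaving out WT replicate 1, WT replicate 2 or SAFB DKO replicate 1 the second (up to 0.125). Scarna9, which GENCODE types as snoRNA, is shown because it differed from its host in both knockouts, with boxes C and D in capitals.
Scarna9, chr9:15326264-15326333: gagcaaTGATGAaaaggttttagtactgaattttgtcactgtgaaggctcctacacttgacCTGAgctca

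The row of Snora73b and Snora73a, the U17 snoRNAs of rRNA processing in Rcc1, stood at 36.7 and 51.4 CPM in EZH2 KO, 156 and 125 CPM in SAFB DKO, and 94.7, 87.5 and 85.6 CPM in WT. It fell by 1.02 in EZH2 KO (adjusted p = 0.00148), whereas it rose by 0.65 in SAFB DKO (adjusted p = 0.0115; lost without WT replicate 2, WT replicate 3 or SAFB DKO replicate 1, up to 0.171). It was 1.53 lower than its 3 flanks in EZH2 KO (adjusted p = 0.00668; 0.0191 in the paired fit; 0.0545 without WT replicate 3), but the flanks held only 4.47 to 8.87 CPM. Against all other rows of Rcc1 the difference was -0.21 and not called (adjusted p = 0.399). Gm22193, in Sf3b3, was 1.13 lower than its flanks in EZH2 KO (adjusted p = 0.0225; 0.0402 in the paired fit). The call was lost without any 1 WT library (up to 0.123) and with the nearest flanks, where it was 0.35 higher and not called (adjusted p = 0.453).

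Several intronic snoRNA rows were higher than their hosts in EZH2 KO, although not all of them rose there. Gm25053, in an intron of Tmem245, stood at 127 and 130 CPM in EZH2 KO, 38.4 and 37.2 CPM in SAFB DKO, and 39.6, 43.6 and 29.5 CPM in WT. Its flanks stood at 18 and 20.0 CPM in EZH2 KO, 44.2 and 41.7 CPM in SAFB DKO, and 22.9, 23.3 and 24.1 CPM in WT. Only the EZH2 KO libraries of the row stood apart from WT. It rose by 1.77 in EZH2 KO (adjusted p = 2.27e-05) and was 2.07 higher than its flanks there (adjusted p = 0.000598; 0.00424 in the paired fit; 0.00896 with the nearest flanks). Gm24727, in an intron of Gsr, stood at 48.9 and 65.6 CPM in EZH2 KO, 10.7 and 8.61 CPM in SAFB DKO, and 52.5, 51.2 and 45.1 CPM in WT. Its flanks stood at 14.3 and 32.6 CPM in EZH2 KO, 66.1 and 82.3 CPM in SAFB DKO, and 59.4, 59.1 and 62.7 CPM in WT. In EZH2 KO the row overlapped WT, while its flanks stood below WT. It was 1.71 higher than the flanks in EZH2 KO (adjusted p = 0.00552; 0.0606 without WT replicate 3) and 2.63 lower in SAFB DKO (adjusted p = 0.000326). With the nearest flanks only, the first was 0.58 (adjusted p = 0.280) and the second -1.51 (adjusted p = 0.049).

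Snord17, a snoRNA in an intron of Snx5, stood at 149 and 231 CPM in EZH2 KO, 62.9 and 61.3 CPM in SAFB DKO, and 152, 148 and 137 CPM in WT. Its flanks stood at 46.2 and 65.6 CPM in EZH2 KO, 92.3 and 106 CPM in SAFB DKO, and 76.7, 80.9 and 85.7 CPM in WT. It was 0.91 higher than the flanks in EZH2 KO (adjusted p = 0.0103, lost without any 1 WT library, up to 0.0852) and 1.52 lower in SAFB DKO (adjusted p = 0.00032), and with the nearest flanks 0.70 (adjusted p = 0.0881) and -1.30 (adjusted p = 0.0144). In EZH2 KO Snord17 itself was 0.39 above WT and not called (adjusted p = 0.128, edgeR), while its flanks stood below WT. The row of Snord57 and 3 further snoRNA genes in Nop56 was 1.95 higher than its single flank in EZH2 KO (adjusted p = 0.000582), where that flank fell by 2.07, and 1.04 lower in SAFB DKO (adjusted p = 0.0103). The second was lost without either SAFB DKO library, WT replicate 1 or WT replicate 2 (up to 0.123), and with the nearest flanks (adjusted p = 0.0689). The Nop56 row has only 1 flank, which is also its nearest, so that this last value does not come from another choice of flank. Gm23713 and Gm24539, in an intron of Zfp808, were 2.02 lower than their flanks in SAFB DKO (adjusted p = 0.000219), and 0.92 lower than all other rows of the host (adjusted p = 0.00468). Gm24667 in Atf7ip2 was 1.70 lower (adjusted p = 0.00354; 0.0581 without SAFB DKO replicate 1) although its flanks fell there too, by 1.63. In EZH2 KO Gm24667 moved alike with its summed flanks, which rose by 1.56. In these flanks 46.9% of the WT counts lay in 1 row, which rose by 2.04 in EZH2 KO and fell by 2.21 in SAFB DKO. Of the 6 flanks, 2 rose in EZH2 KO (median 0.58) and 2 fell in SAFB DKO (median -0.35). Further rows that differed in both fits in SAFB DKO were Gm23455 with Gm22579 in Taf1d, 1.13 higher (adjusted p = 0.00189; 0.61 and adjusted p = 0.442 with the nearest flanks), and Rnu3b4 in an intron of Tex14, 1.24 lower (adjusted p = 0.00449; 0.0588 without SAFB DKO replicate 1; 0.176 with the nearest flanks). In the flanks of Gm23455, 75.8% of the WT counts lay in 1 row, which fell by 1.48 in SAFB DKO. Also lower were Gm23105 in an intron of Pawr, 1.18 lower (adjusted p = 0.0192; up to 0.118, lost without any 1 WT library or either SAFB DKO library; -2.53 and adjusted p = 0.322 with the nearest flanks), and Gm23864 in an intron of Ddr1, 2.10 lower (adjusted p = 0.00476; up to 0.0642, lost without either SAFB DKO library; 0.0505 with the nearest flanks). In EZH2 KO they were Gm24044 with Gm26448 in Rpsa, 1.11 higher (adjusted p = 0.00834; up to 0.0691, lost without any 1 WT library), and Gm27326 in an intron of Rpl23, 1.21 higher (adjusted p = 0.0286; up to 0.146, lost without any 1 WT library or EZH2 KO replicate 1; 0.0677 with the nearest flanks). Gm25220, in Man1b1, was 1.57 higher in EZH2 KO (adjusted p = 0.0172; lost without WT replicate 1 or WT replicate 3, up to 0.0864) and 1.64 lower in SAFB DKO (adjusted p = 0.0145; lost without WT replicate 1, WT replicate 2 or either SAFB DKO library, up to 0.177). With the nearest flanks neither was called (adjusted p = 0.0696 and 0.161).

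For Atg16l1 the answer depended on which rows stood for the host. Scarna6 was 3.19 lower than its flanks in EZH2 KO (adjusted p = 0.0215) and 2.12 higher in SAFB DKO (adjusted p = 0.0228), and Gm25395 2.17 lower (adjusted p = 0.00993) and 2.71 higher (adjusted p = 0.000422). Both calls of Scarna6 were lost without any 1 WT library or either SAFB DKO library (up to 0.102 and 0.176), and the first of Gm25395 without WT replicate 1 or WT replicate 3 (up to 0.0662). An exon row 2.48 kb downstream of Scarna6 held 71.2% of the WT counts in the flanks of Scarna6 and 87.8% in those of Gm25395. It rose by 0.93 in EZH2 KO (adjusted p = 0.00475) and fell by 2.67 in SAFB DKO (adjusted p = 2.27e-07). Exon rows at -9.02 kb and -5.80 kb from Scarna6 fell in EZH2 KO as the scaRNAs did, by 4.01 (adjusted p = 0.0177) and 2.79 (adjusted p = 0.0421). With only the nearest flanks, Gm25395 was 2.70 higher in EZH2 KO (adjusted p = 0.0832) and 0.32 higher in SAFB DKO, neither called, and Scarna6 differed from them by -3.50 in EZH2 KO (adjusted p = 0.0519) and 3.14 in SAFB DKO (adjusted p = 0.0327). Of 10 tested exon rows within 20 kb of Scarna6, 2 fell and 1 rose in EZH2 KO. Snord61, in Rbmx, was a like case, with 90.6% of its flank counts in 1 row that fell by 3.70 in SAFB DKO, and a difference of 2.53 (adjusted p = 0.00386) that was -0.40 and not called with the nearest flanks.

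**Figure D4:**
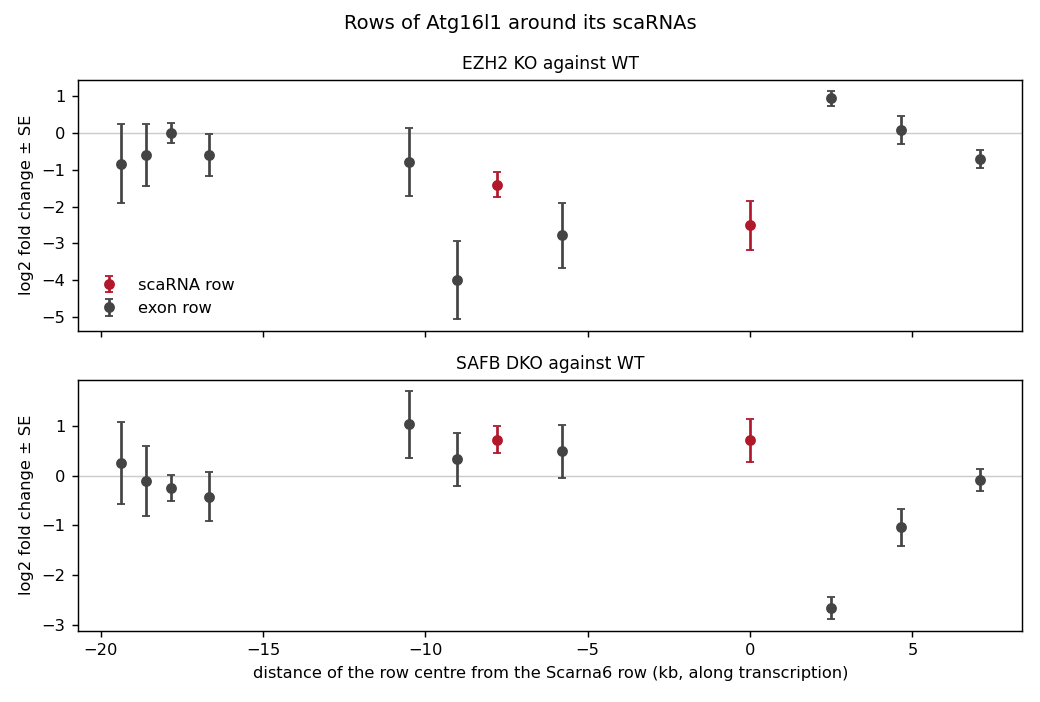
Log2 fold change of the rows of Atg16l1 by distance from Scarna6 in kb, with standard errors, for EZH2 KO against WT and SAFB DKO against WT. The 2 scaRNA rows lie at -2.51 and -1.41 in EZH2 KO, 2 exon rows upstream fall with them, and the row at 2.48 kb goes the other way.

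Genes of the same pathways, counted over rows that hold no small RNA gene, were set beside the members. All 9 core snoRNP proteins with a row, which bind and stabilise the guide RNAs, had lower levels in EZH2 KO, and 8 of them fell (median -0.98), where 47.9% of all 16682 tested genes were called, 22.5% falling and 25.3% rising. Fbl, the methyltransferase fibrillarin, averaged 3.57 CPM in EZH2 KO and 9.28 CPM in WT (log2 change -1.38, adjusted p = 0.00713). Dkc1, the pseudouridine synthase dyskerin, averaged 73.4 CPM in EZH2 KO and 125 CPM in WT (-0.77, adjusted p = 0.000602), and Nop10 was 0.61 lower and not called (adjusted p = 0.0667). In SAFB DKO against WT, where 50% of genes were called, 34.7% falling and 15.3% rising, 2 of the 9 rose (Nhp2 by 0.60 and Rrp9 by 0.64) and the other 7 were not called. Of 35 Sm, LSm and U snRNP proteins, 23 fell and 5 rose in EZH2 KO (median -1.10), and 4 fell and 11 rose in SAFB DKO (median 0.48). Prpf8, the largest protein of the spliceosome core, averaged 167 CPM in EZH2 KO, 814 CPM in SAFB DKO and 473 CPM in WT (-1.50 and 0.78). Snrpn, a tissue-restricted Sm protein gene, rose by 1.48 in EZH2 KO and fell by 6.02 in SAFB DKO.

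Of 23 genes of snoRNP assembly and the Cajal body, 8 fell and 1 rose in EZH2 KO (median -0.22) and 4 fell and 4 rose in SAFB DKO. Of 26 genes of snRNA transcription and 3′ end processing, 8 fell and 7 rose in EZH2 KO and 7 fell and 8 rose in SAFB DKO. Of all tested genes 22.5% fell and 25.3% rose in EZH2 KO, and 34.7% fell and 15.3% rose in SAFB DKO. A list of SNHG and other noncoding genes had 10 with a row. Of these, 5 fell and 1 rose in EZH2 KO (median -0.81), and 3 fell and 1 rose in SAFB DKO. Whether each hosts a snoRNA was not checked, and the 3 falls in SAFB DKO were those of Meg3, Mirg and Tug1. Rian fell in EZH2 KO, at 147 CPM against 283 CPM in WT (-0.94). In SAFB DKO it stood at 287 CPM (log2 change 0.02, adjusted p = 0.913). Snhg11 fell by 0.85 in EZH2 KO, and its level in SAFB DKO rose by 0.82. Tug1 did the opposite, with a rise of 0.73 in EZH2 KO and a fall of 0.99 in SAFB DKO.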

How the data were processed

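RNA recovered with an EZH2 antibody was sequenced from 7 libraries after ribosomal RNA depletion. The deposited values are raw read counts per interval, made by the authors with featureCounts 2.0.3 in reverse-stranded mode, per the file headers, on mm10, per the submitters' processing notes. Neither the aligner nor the peak caller is given in the sources used here. The 3 pooled value columns equal the sums of their libraries in all 303889 rows and were not used.

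Rows were matched by position and strand to GENCODE M21 genes. Members and lists were chosen with earlier results of these data known. All 7 libraries entered 1 edgeR 4.0.16 quasi-likelihood fit by group (R 4.3.3) over the 192964 rows that passed filterByExpr, with Benjamini-Hochberg adjustment and calls at an adjusted p under 0.05. TMM factors came from the 170869 tested rows outside the deposited filtered list, and CPM are scaled by them. Differences from host flanks used the log of the flank count plus 0.5 as offset, with a mean flank count of at least 10, and a paired fit of row and flank counts was added after seeing simulated data. Counts were simulated for EZH2 KO against WT, with changes placed only in rows with a mean of at least 50 counts. On these, the row test recovered 84% of 4-fold and 18% of 2-fold changes with 2 false calls over 182921 rows. The offset test recovered 58% and 2.38% with 22 false calls over 144096 rows, and the paired fit 10.2% and 0% with 0 false calls. Recovery at lower counts was not simulated, and the median snRNA row had a mean of 1.19 CPM in WT. Total counts per library, from 7050832 to 21832539, set the precision.

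The rule for named rows took every scaRNA row and the called rows of largest change per type and direction whose groups did not overlap. It also took the 5 rows per type of highest WT level and the rows of largest called difference from flanks. Snora73b, Snord17, Snora78, Snord83b, Gm22193, the Rian row, the rows at 0 counts and further rows that differed from their flanks in both fits were added after their values were seen where this rule does not hold them. Not every row that the rule holds is described above. Among those left out, Gm24265 fell by 4.13 and Gm22952 by 3.16 on the log2 scale in EZH2 KO against WT, and Gm25939 rose by 1.34. Sequences are GENCODE M21 transcripts, and snRNA copies were assigned with blastn 2.17.0. Alternatives were DESeq2 1.42.0, other scaling factors and count filters, other flanks, the replicate number as block, and each library left out. Results of 1 row and its host are not reported here.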

Additional observations from a re-analysis of the deposited data

How the results depend on the processing

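Among results for named rows, DESeq2's Wald test left 148 on the same side of the threshold and in the same direction, made 4 weaker and 4 stronger. Scaling by column totals left 142, and it turned 1 round, Gm22455 in SAFB DKO against EZH2 KO, to 0.42 on the log2 scale from -0.05 (the alternative moves the median of all rows). Leaving out WT replicate 1 made 25 of them weaker and leaving out SAFB DKO replicate 1 made 19 weaker, and a group left with 1 library is assumed to vary like the others.

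The number of members called ranged from 49 to 102 in EZH2 KO against WT, from 47 to 97 in SAFB DKO against WT and from 117 to 147 in SAFB DKO against EZH2 KO when 1 library was left out. Over rows that were mainly small RNA it was 8, 5 and 11, with ranges of 4 to 10, 1 to 6 and 8 to 13. Members that differed from their flanks ranged from 3 to 51, 9 to 28 and 29 to 72. Of rows mainly of small RNA, 2, 2 and 2 differed from flanks. With only the nearest flank on each side, 8, 6 and 31 differed, and in the paired fit of EZH2 KO against WT 14. The cause of these shifts was not tested, beyond the smaller number of rows in the first case.

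The ratio of shares was 0.680, 1.27 and 1.87 of the counts outside the deposited filtered list, and 0.336, 2.19 and 6.52 for rows mainly of small RNA. Without 1 library it lay between 0.596 and 0.605, between 1.44 and 1.52, and between 2.40 and 2.53.

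The replicate numbers are not shown to pair the libraries, since deviations of same-numbered EZH2 KO and WT libraries correlated at 0.0317 and 0.0042. With the replicate number as block, 61 members were called in EZH2 KO against WT in place of 84, and 14 differed from their flanks in place of 22. Both SAFB DKO labels carry the same number, so that no block was fitted there. The depth of the EZH2 KO libraries limits what can be called at low counts.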
